A study of Homo sapiens with 8 samples.

Results

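Cells balance iron by changing how the mRNAs of a few genes are translated and degraded, and 8 of those genes were followed here from RNA to ribosome. They were chosen by name and make up 8 of the 26830 gene symbols measured: the ferritin subunits FTH1 and FTL, the plasma iron carrier TF and its receptor TFRC, the iron importer SLC11A2, the iron exporter SLC40A1, and ACO1 and IREB2, which encode the iron regulatory proteins. When iron is scarce, iron regulatory proteins bind a hairpin in mRNA, the iron-responsive element (IRE). An IRE in the 5′ untranslated region, as in FTH1, FTL and SLC40A1, blocks the start of translation, whereas IREs in the 3′ untranslated region, as in TFRC and some SLC11A2 transcripts, protect the mRNA from decay. Ribosome profiling sequences the fragments that ribosomes shield from nuclease, so that each gene has a footprint level and an input RNA level from the same culture.

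The libraries came from 4 cultures of a single Cas9 clone labelled HEK293T, a human embryonic kidney line. Of these, 3 cultures carried lentiviral guide RNAs against METTL16, an RNA methyltransferase (sgMETTL16-1, sgMETTL16-2 and sgMETTL16-3, 1 guide each), and 1 carried a negative control guide (sgNS). All were kept in blasticidin (10 µg/ml) and puromycin (2 µg/ml) and given cycloheximide (100 µg/ml, 5 min), and each gave 1 library of footprints (17 to 34 nt) and 1 of input RNA after depletion of ribosomal RNA. The series asks how METTL16 affects translation efficiency. Values are TPM, a transcript's share of the library after division by its length, so input levels can be set side by side between genes. Footprints come only from the parts that ribosomes cover. The part of untranslated length in footprint TPM, and in footprint to input ratios compared between genes, was not tested.

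The depth of each library is unknown, since TPM keeps no read totals, and between 20095 and 22468 of the 26830 genes were listed at 0 in a footprint library. Protein-coding genes held 26.8%, 28.2% and 11.9% of footprint TPM in sgMETTL16-1, sgMETTL16-2 and sgMETTL16-3, and 26.9% in sgNS. Deposited footprint values of single genes in sgMETTL16-3 are therefore not directly comparable with those of the other cultures. Input RNA of the targeted gene METTL16 ranged from 4.16 to 5.25 TPM over the sgMETTL16 cultures, against 5.31 TPM for sgNS. Its footprints were listed at 0 in all 3 sgMETTL16 cultures, against 19.76 TPM in sgNS, which is the direction of the labels, though 0 was common in footprints. Most listed markers of the labelled cell type were low or absent in the inputs. Of 8 genes typical of HEK293 cells, 5 were under 1 TPM in every input, and NEFL, NEFM and VIM were at 0 there. The other 3 were present in every input, at 8.94 to 10.42 TPM for NES, 8.93 to 12.06 TPM for ENO2 and 6.13 to 12.03 TPM for CDH2. Each of 12 hepatocyte marker genes reached at least 10 TPM in every input. Summed hepatocyte marker levels were 4905 to 24170 TPM in sgMETTL16 footprints and 13170 TPM in sgNS footprints, and 7527 to 11325 TPM in sgMETTL16 inputs and 6344 TPM in the sgNS input. VIM, listed at 0 in the inputs, had 43.3 to 85.2 TPM in sgMETTL16 footprints and 188 TPM in sgNS footprints. Whether footprint and input RNA differ in the cells they came from, and the part of that in the ratios below, was not tested. Of the erythroid and blood markers 7 of 8 were under 1 TPM in every input, as were 4 of 5 fibroblast markers.

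The hairpin that names this set of genes can be read in part from the RefSeq sequence (GRCh38.p14) at the start of FTL. The 30 bases below are shown because they hold the hairpin's loop, in capitals, with its flanking stem. FTL bases 21 to 50 after the transcript start lie at chr19:48965329-48965358 on the plus strand. They are followed by bases 3 to 32 of ALAS2, the erythroid enzyme of haem synthesis, at chrX:55030946-55030975 on the minus strand.
FTL: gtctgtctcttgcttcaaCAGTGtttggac
ALAS2: ctgtcattcgttcgtcctCAGTGcagggca
The letters CAGTG in the direction of transcription were found in the first 50 bases of 6.48% of 35116 RefSeq start windows, and their reverse complement CACTG in 6.08%, so the match describes these letters and is no proof of a hairpin. The windows of TF, TFRC, SLC11A2, SLC40A1, ACO1 and IREB2 did not hold CAGTG in those 50 bases. Bases further on were not searched, so this says nothing about an IRE beyond them, that of SLC40A1 included. FTH1 had no start window and was not searched. ALAS2 was barely present, at 0.07 TPM or less in every input.

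Ferritin mRNA was abundant and carried few footprints for its level. FTL (chromosome 19, 48965309 to 48966879, GRCh38) encodes the ferritin light chain, and on average over the 4 inputs it was the highest of 18786 protein-coding genes. With the sgMETTL16 cultures given in the order 1, 2, 3, FTL footprints were 249, 123 and 169 TPM in sgMETTL16 and 203 TPM in sgNS. FTL input was 7274, 10009 and 9548 TPM in sgMETTL16 and 5381 TPM in sgNS. Every footprint value was far below every input value, and mean footprint TPM was 2.31% of mean input TPM, a 43.3-fold difference. FTL took place 197 among protein-coding genes in the footprints, against place 1 in the inputs.

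FTH1 (chromosome 11, 61964285 to 61967634), the heavy chain that oxidises iron for storage, was likewise low in footprints. FTH1 footprints stood at 49.9, 51.9 and 23.6 TPM in the 3 sgMETTL16 cultures and were listed at 0 in sgNS. FTH1 input stood at 1041, 1247 and 949 TPM in sgMETTL16 and at 847 TPM in sgNS. It was the 14th most abundant protein-coding mRNA in the inputs and stood at place 1264 in the footprints. The light and heavy chain together made up 0.112%, 0.0621% and 0.161% of all protein-coding footprint TPM in sgMETTL16 and 0.0752% in sgNS, against 3.27%, 4.27% and 5.23% of protein-coding input TPM in sgMETTL16 and 3.07% in sgNS.

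**Figure D1:**
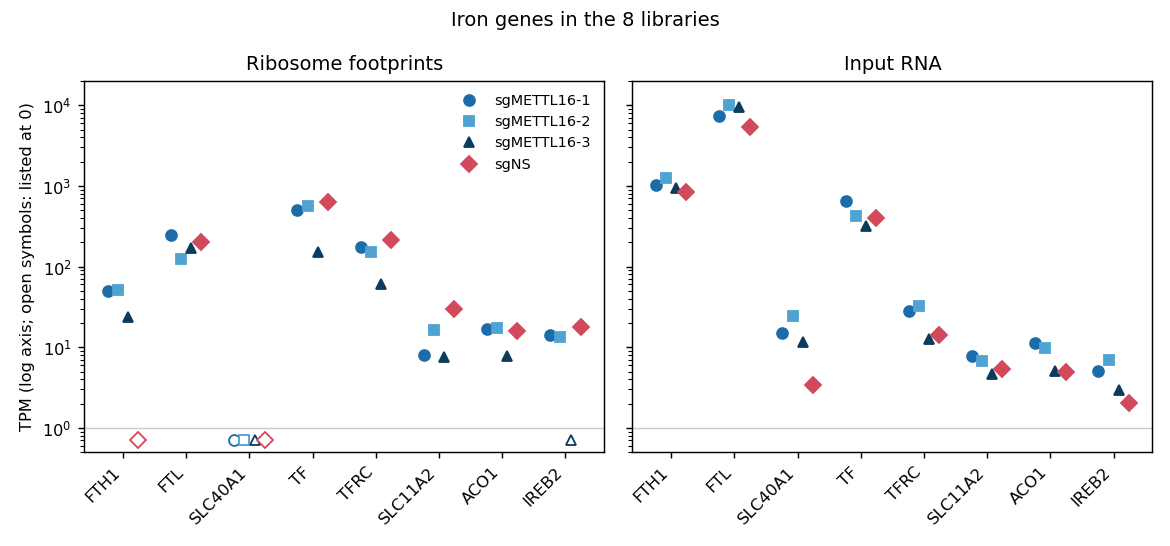
TPM of the 8 iron genes in ribosome footprints (left) and input RNA (right) on a log axis, with 1 symbol per culture and open symbols for values listed at 0. The ferritin genes FTL and FTH1 are the highest of the 8 in every input, while TF passes FTL in 3 of the 4 footprint libraries and TFRC passes it in 2.

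The test of footprints against input covered 11233 genes in all 8 libraries (limma on log2(TPM + 1), libraries scaled so that the typical gene seen in all 8 has equal footprint and input levels, Benjamini-Hochberg threshold 0.05). Of all tested genes 45.3% were called, 40.9% lower and 4.4% higher in footprints (4598 lower and 494 higher, against 255 lower and 945 higher with centring on the median gene). The calls of the iron genes are read against that background: of the 8, 4 were lower (FTL, FTH1, SLC40A1 and TF) and 1 was higher (TFRC). The call of TF was lost in 6 of 12 alternatives and its sign changed in 1, so no direction is given for it below. FTL was lower by a log2 change of -6.38 (SE 0.35, limma adjusted p = 1.73e-05), and FTH1 by -6.70 (SE 1.13, limma adjusted p = 0.0017), a value that depends on the pseudocount and became -5.33 without sgNS, where FTH1 footprints were listed at 0. Both passed under all 12 alternatives, with FTL between -6.65 and -3.86, the smallest size being that with centring on the median gene.

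The ferritin difference can be placed among other well-measured mRNAs. Among all 11233 tested genes, 62 had a lower log2 change than FTL and 47 a lower one than FTH1. Among 1838 genes above 0 in all 8 libraries, 1 had a lower log2 change than FTL, and among the 1785 protein-coding ones none did. Of the 1838, 24.5% were called lower, and the median log2 change was -0.03. That set leaves out every gene listed at 0 in any footprint library, so the place of FTL within it is set in part by the filter. The 20 most abundant protein-coding mRNAs of the inputs had ratios of mean footprint to mean input TPM up to 6.32, reached by albumin (ALB), and FTL (0.0231) and FTH1 (0.0307) had the lowest, followed by RPS2 at 0.205. Of the 326 protein-coding genes with a mean input of 100 TPM or more, 6 had a lower ratio than FTL and 9 a lower ratio than FTH1. Of those with a lower ratio than FTL, 5 were listed at 0 in all 4 footprint libraries.

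Ferritin genes have processed copies elsewhere in the genome, and how the authors' counting shared short reads among such copies is not given in the sources used here, so their levels carry that uncertainty. The table lists 4 ferritin copies. FTH1P3 was at 2.84 to 5.64 TPM in the inputs and the others at 0.02 TPM or less, and all 4 were listed at 0 in every footprint library. The part of such sharing in the ferritin ratios was not tested.

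The exporter ferroportin, SLC40A1 (chromosome 2, 189560590 to 189580786), also carries a 5′ IRE and was listed at 0 in all 4 footprint libraries. Its input stood at 15.2, 24.7 and 11.6 TPM in sgMETTL16 and at 3.37 TPM in sgNS. Of 1707 protein-coding genes with a mean input from 10 to 20 TPM, 14.8% were listed at 0 in all 4 footprint libraries, so the absence of SLC40A1 footprints is not unusual at its input level. The limma test called it lower (adjusted p = 9.36e-05), a call lost with centring on the median gene (adjusted p = 0.13), and no fold is given against values of 0.

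The transferrin receptor stood at the other end. TFRC (chromosome 3, 196049284 to 196082090), which brings transferrin-bound iron into the cell and carries IREs in its 3′ untranslated region, had footprints at 177, 152 and 61.4 TPM in the 3 sgMETTL16 cultures and at 213 TPM in sgNS. TFRC input stood at 28.3, 32.4 and 12.8 TPM in sgMETTL16 and at 14.2 TPM in sgNS. Footprint values lay above input values in every culture without overlap. TFRC rose in footprints by a log2 change of 1.77 (SE 0.33, limma adjusted p = 0.00292), and passed under all 12 alternatives, between 1.64 and 4.27, the largest with centring on the median gene. Mean TFRC footprint TPM was 6.88 times its mean input TPM, and 51 of 3925 protein-coding genes with a mean input of 10 TPM or more had a higher ratio. Many of those genes were listed at 0 in footprints. Among the 1838 genes above 0 in all 8 libraries, 201 had a higher log2 change than TFRC and 22.3% were called higher. Among all 11233 tested genes, 428 had a higher log2 change.

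Scaling between footprint and input libraries cancels when 2 genes are compared within a culture. The footprint to input ratio of TFRC exceeded that of FTL 183-fold, 380-fold and 271-fold in the sgMETTL16 cultures and 398-fold in sgNS. Against FTH1 the excess was 131-fold, 113-fold and 192-fold in the sgMETTL16 cultures, and it has no value in sgNS. TFRC footprints were above FTL footprints in 2 of the 4 cultures and above FTH1 footprints in all 4, while its input was below that of both ferritin genes in every culture.

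**Figure D2:**
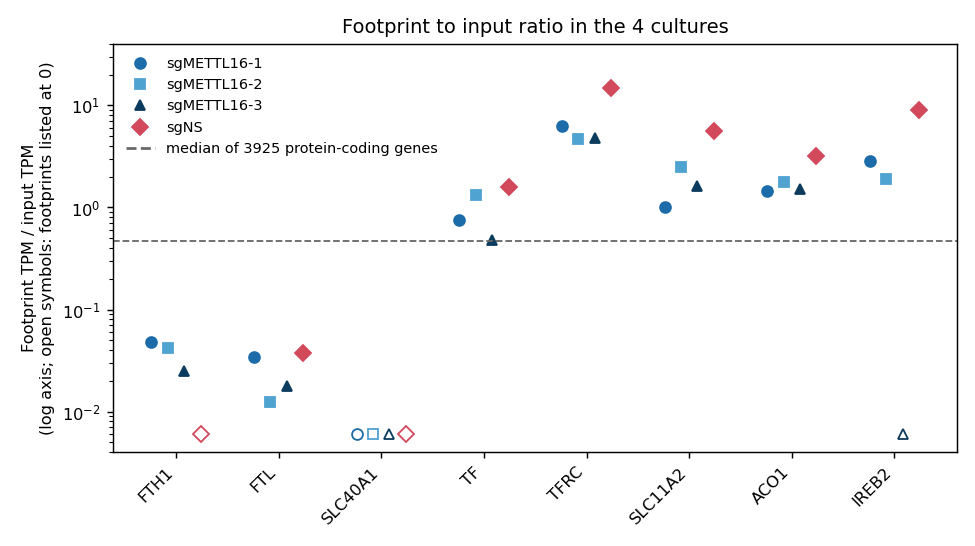
Footprint TPM divided by input TPM for the 8 iron genes in each culture (log axis, open symbols where footprints were listed at 0), with a dashed line at 0.471, the median over 3925 protein-coding genes with a mean input of 10 TPM or more. The 2 ferritin genes lie between 0.0123 and 0.0480 wherever they are above 0, and TFRC lies between 4.69 and 14.98.

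Transferrin, the carrier that liver secretes into plasma, lay near equality. TF (chromosome 3, 133661998 to 133796641) had footprints at 498, 570 and 153 TPM in sgMETTL16 and 635 TPM in sgNS, and input at 654, 430 and 322 TPM in sgMETTL16 and 397 TPM in sgNS. Footprint and input values overlapped, with footprints above input in sgMETTL16-2 and sgNS and below it in the other cultures. Mean TF footprint TPM was 1.03 times its mean input TPM. Of 3925 protein-coding genes with a mean input of 10 TPM or more, 2875 had a lower ratio than TF. The log2 change of -1.05 relative to the typical gene seen in all libraries (SE 0.33, limma adjusted p = 0.0334) was -0.09 on TPM as deposited (limma adjusted p = 0.912), 1.48 with centring on the median gene, and did not pass with the culture as a replicate block (adjusted p = 0.0736), so no direction is given for TF. Its call was also lost without sgMETTL16-1 (-1.02), sgMETTL16-3 (-0.78) or sgNS (-0.96).

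The remaining members were weakly expressed. SLC11A2 (chromosome 12, 50952263 to 51028886), which moves iron out of the endosome and exists with and without a 3′ IRE, had footprints at 7.93, 16.5 and 7.49 TPM in sgMETTL16 and 30.0 TPM in sgNS, and input at 7.87, 6.70 and 4.62 TPM in sgMETTL16 and 5.30 TPM in sgNS. Gene-level TPM does not separate its transcript forms. ACO1 (chromosome 9, 32384643 to 32454769), an aconitase that becomes iron regulatory protein 1 when it lacks its iron-sulphur cluster, had footprints at 16.6, 17.3 and 7.86 TPM in sgMETTL16 and 15.8 TPM in sgNS. Its input was 11.4, 9.81 and 5.13 TPM in sgMETTL16 and 4.91 TPM in sgNS.

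IREB2 (chromosome 15, 78437431 to 78501453), the regulatory protein 2 that is degraded when iron is plentiful, had footprints at 14.3, 13.2 and 0 TPM in sgMETTL16 and 18.04 TPM in sgNS. Its input was 5.06, 6.98 and 2.91 TPM in sgMETTL16 and 2.02 TPM in sgNS. On TPM as deposited, footprints of SLC11A2 and ACO1 exceeded input in every culture, and those of IREB2 in 3 of 4. None of the 3 genes passed the test of footprints against input. Their log2 changes were 0.16 (SE 0.40) for SLC11A2, -0.04 (SE 0.31) for ACO1 and -0.13 (SE 0.78) for IREB2, with limma adjusted p between 0.773 and 0.94.

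In order of input level, FTL stood above FTH1, FTH1 above TF and TF above TFRC in all 4 cultures. SLC40A1, ACO1, SLC11A2 and IREB2 followed with overlapping ranges. In footprints TF stood above TFRC in all 4 cultures and above FTL in 3 of 4, FTL and TFRC overlapped, and FTH1 was below both.

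**Figure D3:**
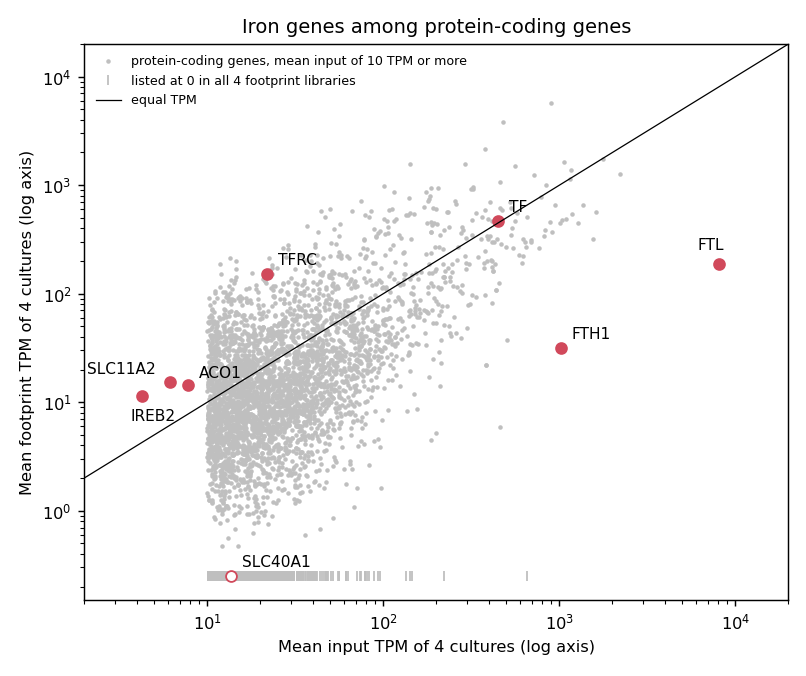
Mean footprint TPM against mean input TPM of the 4 cultures (log axes) for 3925 protein-coding genes with a mean input of 10 TPM or more (grey) and the 8 iron genes (red). FTL and FTH1 lie far under the line of equal TPM at high input, TF lies on it and TFRC above it, while SLC40A1 is listed at 0 in footprints and drawn at the lower edge.

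Other mRNAs with an IRE were set beside the members. The list of 5 genes with a 5′ IRE added EPAS1, a hypoxia-inducible transcription factor, and ALAS2. All 4 tested genes of that list were lower in footprints (against 40.9% of all tested genes), with a median log2 change of -5.85 against -1.58 over all 11233 genes, a median that depends on the pseudocount because 3 of the 4 were listed at 0 in some footprint libraries. With centring on the median gene SLC40A1 lost its call, so the count of 4 did not hold there. EPAS1 footprints were listed at 0, 12.1 and 5.49 TPM in sgMETTL16 and at 0 in sgNS, with inputs of 94.6, 123 and 96.9 TPM in sgMETTL16 and 39.6 TPM in sgNS. All 4 had a ratio of mean TPM below the median of 0.471, though by definition as many genes lie below that median as above it. The ratio of EPAS1 was 0.0497 at a mean input of 88.5 TPM. HNF4A, the hepatocyte marker with the lowest ratio and not on the IRE lists, had 0.0495 at 93.3 TPM. How common such a ratio is at the input level of EPAS1 was not tested. Of the 4 genes listed with a 3′ IRE, 3 were tested. TFRC was higher, SLC11A2 did not pass, and CDC42BPA, a kinase of the cytoskeleton, was lower (limma adjusted p = 0.0196) with a single footprint library above 0.

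The wider iron pathway was read against the same background of 40.9% lower. Of 6 tested genes of iron uptake and endosomal release, 3 were lower in footprints and none higher: TFR2, the hepatic receptor that senses transferrin (limma adjusted p = 1.74e-05, listed at 0 in all 4 footprint libraries), MCOLN1, a lysosomal channel (also listed at 0 in all 4), and the ferrireductase STEAP3 (listed at 0 in 2 of 4). The importer SLC39A14 did not pass (-1.48, limma adjusted p = 0.0623), with footprints at 227, 218 and 181 TPM in sgMETTL16 and 66.1 TPM in sgNS and input at 297, 258 and 234 TPM in sgMETTL16 and 147 TPM in sgNS. Of 8 tested genes of storage, chaperones and export 5 were lower and none higher. They included the iron chaperones PCBP1 (-1.90, SE 0.42) and PCBP2 (-2.23, SE 0.35), SLC46A1, a folate and haem carrier, and the hepcidin gene HAMP. Both PCBP genes were above 0 in all 4 footprint libraries, SLC46A1 and HAMP in 1 of 4. The list medians were -2.13 for uptake and -1.52 for storage, against -1.58 over all genes.

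NCOA4, the receptor that delivers ferritin to the lysosome for breakdown, had footprints at 145, 134 and 22.8 TPM in sgMETTL16 and 137 TPM in sgNS, and input at 44.8, 52.7 and 16.3 TPM in sgMETTL16 and 14.1 TPM in sgNS. It is named after its values were seen, as footprints exceeded input in each culture, though its log2 change of 0.74 (SE 0.51) did not pass the test (limma adjusted p = 0.281).

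Haem and iron-sulphur genes were compared in the same way. Of 7 tested genes of haem synthesis, 2 were lower (ALAD and UROS, both listed at 0 in every footprint library), and PPOX and UROD did not pass. Of 10 genes of haem breakdown and transport, 4 were lower: the haem oxygenase HMOX1, the biliverdin reductase BLVRB, and the transporters FLVCR2 and SLC48A1. HMOX1 was above 0 in 2 of 4 footprint libraries and the other 3 in 1 of 4. Of 20 tested genes of iron-sulphur cluster assembly and mitochondrial iron, 7 were lower, among them FDX1L, SLC25A28 and NFU1, listed at 0 in every footprint library, and IBA57, above 0 in 1 of 4, and 1 was higher, the mitochondrial chaperone HSPA9 (1.13, SE 0.35, limma adjusted p = 0.0297). The medians of these lists were -1.64, -1.84 and -1.49. Of 6 tested genes of hepcidin control 3 were lower (ACVR1 and BMPR1A, listed at 0 in every footprint library, and NEO1, above 0 in 1 of 4) and SMAD4 did not pass, with a median of -1.53.

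**Figure D4:**
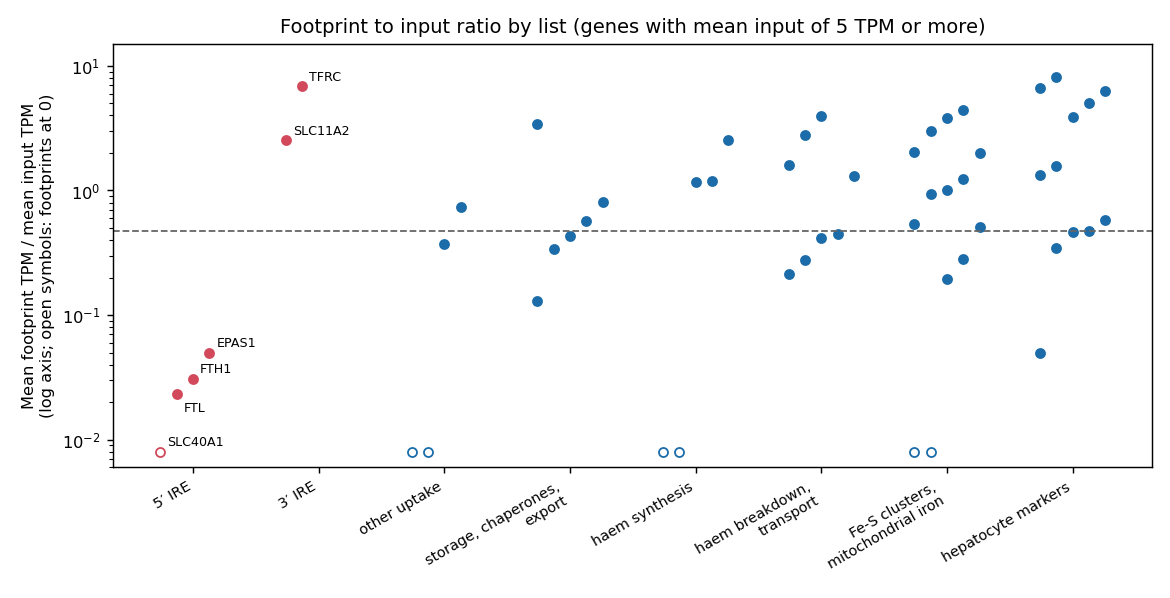
Ratio of mean footprint to mean input TPM (log axis) for genes with a mean input of 5 TPM or more in the IRE lists (red) and the other lists (blue), with open symbols for genes listed at 0 in all 4 footprint libraries and a dashed line at the median of 0.471 over 3925 protein-coding genes. The 4 genes with a 5′ IRE lie below the line, and TFRC and SLC11A2 lie above it.

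The guides against METTL16 were compared with the control guide in the input RNA, where the test covered 10967 genes and called 2.83% of them, 1.58% higher and 1.25% lower (173 and 137 genes, against 22 and 1 on TPM as deposited and 292 and 66 with rescaling to protein-coding genes). SLC40A1 was the 1 member called. It averaged 17.1 ± 6.79 TPM in sgMETTL16 (SD, n = 3) and 3.37 TPM in sgNS (n = 1), and rose by a log2 change of 1.46 (SE 0.38, limma adjusted p = 0.00578). It was above sgNS in 3 of 3 sgMETTL16 cultures. The SE and p rest on the variance of all tested genes at a similar level, not on the spread of SLC40A1 itself. The call was lost without sgMETTL16-1 (1.56, adjusted p = 0.264) and on TPM as deposited (1.99, limma adjusted p = 0.225), where the direction was the same. In bulk RNA, fewer cells of a type and less RNA per cell cannot be told apart. The hepatocyte marker sum was also higher in the sgMETTL16 inputs, where 7 of its 12 genes had a positive log2 change and none passed, and its part in the change of SLC40A1 was not tested.

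The other 7 members did not pass in the input, with log2 changes from -0.35 for TF to 0.40 for IREB2 and limma adjusted p of 0.812 or more. FTL averaged 8944 ± 1464 TPM in sgMETTL16 (SD, n = 3) and stood at 5381 TPM in sgNS (log2 change 0.19, SE 0.54). FTH1 averaged 1079 ± 152 TPM in sgMETTL16 (SD, n = 3) and stood at 847 TPM in sgNS (log2 change -0.19, SE 0.47). Both ferritin genes were therefore above sgNS in every sgMETTL16 input as deposited, and FTH1 changed sign with the scaling, to 0.34 on TPM as deposited, where the median gene was at 0.46. HMOX1, which frees iron from haem, was the 1 gene of the other iron lists to pass. It stood at 24.7, 56.5 and 60.3 TPM in the sgMETTL16 inputs and at 9.87 TPM in sgNS (log2 change 1.52, SE 0.39, limma adjusted p = 0.00576).

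**Figure D5:**
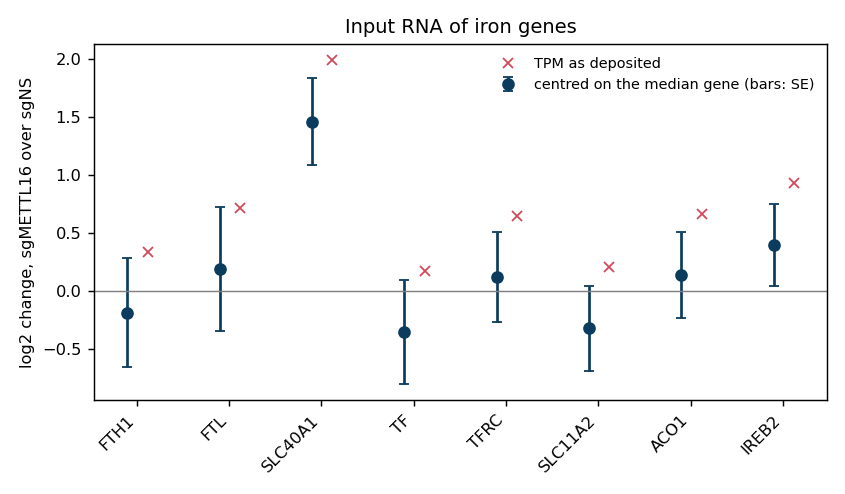
log2 change of input RNA, sgMETTL16 over sgNS, for the 8 iron genes after centring on the median gene (circles, bars are standard errors) and on TPM as deposited (crosses). SLC40A1 lies highest in both, at 1.46 and 1.99, and the bars of 6 of the other 7 genes cross 0.

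In the footprints the same comparison called 6.54% of 9297 genes, 0.699% higher and 5.84% lower, but 607 of the 608 called genes were listed at 0 in sgNS or in all 3 sgMETTL16 libraries. FTH1 was one of them and the 1 member called, higher in sgMETTL16 (limma adjusted p = 0.0329), through its value of 0 in sgNS. The call was lost in 7 of 10 alternatives, among them leaving out any sgMETTL16 culture (adjusted p of 0.114 to 0.179). The other tested members did not pass: FTL averaged 180 ± 63.8 TPM in sgMETTL16 (SD, n = 3) against 203 TPM in sgNS, and TFRC averaged 130 ± 60.9 TPM in sgMETTL16 (SD, n = 3) against 213 TPM in sgNS. After scaling the log2 change was 0.32 (SE 0.67) for FTL, opposite in direction to the deposited means, and -0.29 (SE 0.44) for TFRC. SLC40A1, at 0 throughout, was not tested. CDC42BPA, with its single footprint value in sgNS, was called lower (limma adjusted p = 0.0329), and also in translation efficiency (limma adjusted p = 0.04).

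Translation efficiency, the footprint to input ratio, was compared between guides as the interaction over all 8 libraries, which called 5.53% of 11233 genes, 1.5% higher and 4.03% lower (168 and 453 genes, against 311 and 527 with rescaling to protein-coding genes). The split depended on the settings: 94 genes were higher and 49 lower among genes averaging at least 10 TPM, 531 and 540 with a pseudocount of 0.1, and 436 and 503 with no filter. Of the 621 called genes, 455 had footprints listed at 0 in all 3 sgMETTL16 cultures and 169 in sgNS, some in both. Only 2 were above 0 in all 4 footprint libraries. FTH1 was again the 1 member called (limma adjusted p = 0.0099), through the same value of 0, and the call was lost with the culture as a replicate block (adjusted p = 0.189), where limma called 0 genes (without the block, 1225 lay under an unadjusted p of 0.05). As deposited, the FTL ratio was 0.0343, 0.0123 and 0.0177 in sgMETTL16 and 0.0376 in sgNS, and the TFRC ratio was 6.28, 4.69 and 4.78 in sgMETTL16 and 14.98 in sgNS. The typical gene seen in all libraries moved too, with a ratio of 1.66, 1.41 and 1.67 in sgMETTL16 and 3.59 in sgNS. Relative to it the FTL ratio was 0.0206, 0.00874 and 0.0105 in sgMETTL16 and 0.0105 in sgNS, and the TFRC ratio was 3.77, 3.33 and 2.86 in sgMETTL16 and 4.17 in sgNS. The interaction was 0.24 (SE 0.91, limma adjusted p = 0.908) for FTL and -0.33 (SE 0.68, limma adjusted p = 0.864) for TFRC, errors wide enough that a change of severalfold would not be detectable. An exact two-sided permutation test of the log2 ratio cannot go below p = 0.25 with 3 cultures against 1. Run on TPM as deposited, without the scaling above, this permutation test gave p = 0.5 for FTL and p = 0.25 for TFRC. The differences it used were -0.94 for FTL and -1.49 for TFRC, and the move of the typical gene is part of them.

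Across the 8 libraries, the genes whose log2(TPM + 1) followed that of FTL most closely were PIP4K2B, EEF2 and LMNB2 (Pearson r of 0.99, 0.98 and 0.98, among 1145 protein-coding genes above 0 in all libraries with a mean input of 10 TPM or more). For FTH1 they were RPL13, SURF4 and CPNE1 (0.96, 0.95 and 0.94), for TF IDH2, DDX17 and UGGT1 (0.98, 0.97 and 0.96), and for TFRC TM9SF2, RPS4X and AFP (0.99 each). These are descriptions over 8 libraries of 2 kinds, which share cultures and differ mainly by kind.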

How the data were processed

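Human input RNA and ribosome footprint libraries (51-base reads) from 3 sgMETTL16 cultures and 1 sgNS culture were analysed from the TPM values that the authors deposited. Per the submitters' processing notes, the tools were STAR, with no version named, and RSEM 1.2.31, with GRCh38. Symbols were matched to RefSeq GRCh38.p14 (23987 by symbol, 1395 by an older symbol, 1448 unmatched). log2(TPM + 1) was fitted with limma 3.58.1 (R 4.3.3, intensity trend) for genes averaging at least 1 TPM. Input libraries were centred on the median gene. The other fits were scaled by the median of ratios over genes above 0 in every library, since the median gene of a footprint library can be 0. Alternatives were other pseudocounts, filters and scalings, each culture left out, and the culture as a replicate block. Footprint and input libraries of a culture are paired by the labels, and same-numbered deviations correlated at 0.0836, 0.0673 and 0.0929, each more than with the other numbers. The spread of sgNS, a single culture, was taken from the sgMETTL16 cultures. In the input fit limma set the variance of each gene wholly by the trend with level over all tested genes. The SE and p of a gene in that fit, HMOX1 included, do not measure its own spread among cultures. The sgMETTL16 cultures differ in guide, and nothing says that spread among libraries is more than technical and guide variation. The code was tested on simulated data. All 8 members were named in every comparison, and up to 4 genes of each other iron list by smallest p in footprints against input. NCOA4 and HSPA9 were named outside that rule, after their values were seen, HSPA9 as the gene of its list called higher. Some genes of these lists are not reported here. The members and lists were chosen with earlier results of these data known.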

Additional observations from a re-analysis of the deposited data

How the results depend on the processing

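The log2 changes of FTL, FTH1 and TFRC between footprints and input kept direction and call under all 12 alternatives, the replicate block included. Over all members and comparisons, 327 alternatives were run on 31 values: 267 kept direction and call, 21 lost a call and 39 changed sign, and the cause was not tested. Numbers of called genes moved more. In the input 310 genes passed, against 110 without sgMETTL16-1, 664 without sgMETTL16-3 and 23 on TPM as deposited. In footprints 608 passed, 146 with a mean of at least 10 TPM, and 0 when centred on the median gene or without any 1 sgMETTL16 culture (limma, where 1152 had an unadjusted p under 0.05 in the full set). For translation efficiency 621 passed (1225 at an unadjusted p under 0.05), against 1071 and 389 with pseudocounts of 0.1 and 5, 939 with no filter, 143 with a mean of at least 10 TPM, 0 without sgMETTL16-1 and 954 without sgMETTL16-3, and 0 with limma when centred on the median gene or with the replicate block. For footprints against input 5092 passed, with 10768 with no filter, 2176 with a mean of at least 10 TPM and 1200 when centred on the median gene, which lifted the median change from -1.58 to 0.64. The higher and lower calls were then 945 and 255, against 494 and 4598. The median change was -0.93 on TPM as deposited. SLC40A1 lost its footprint against input call only when centred on the median gene among the alternatives in which it was tested, and its ratio of 0 became 0.0707 with a pseudocount of 1.

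Signs that changed were all of values that did not pass, except TF. On TPM as deposited, the change between footprints and input was 0.83 for ACO1 and 0.71 for IREB2. In the same setting the change between guides in footprints was -0.24 for ACO1 and -0.23 for FTL, that in translation efficiency was -0.90 for ACO1, -0.94 for FTL and -1.02 for TF, and that in the input was 0.34 for FTH1, 0.21 for SLC11A2 and 0.17 for TF. Centred on the median gene, footprints against input gave 2.40 for ACO1, 2.29 for IREB2 and 1.48 for TF, the guides in footprints gave -2.37 for ACO1 and -2.35 for FTL, and translation efficiency gave -1.99 for ACO1, -2.03 for FTL and -2.11 for TF. Rescaled to protein-coding genes, footprints against input gave 0.93 for ACO1 and 0.21 for IREB2, translation efficiency gave -0.40 for ACO1, -0.34 for FTL and -0.42 for TF, and the input gave 0.11 for FTH1 and 0.0062 for SLC11A2. With a pseudocount of 5, FTH1 was at 0.0048 in the input and IREB2 at 0.089 in footprints against input.

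Leaving out 1 culture moved the input change between -0.013 and 0.26 for ACO1 and between -0.044 and 0.39 for FTL. In footprints against input the range was -0.16 to 0.048 for ACO1, -0.50 to 0.75 for IREB2 and -0.033 to 0.42 for SLC11A2. In footprints between guides it was -1.90 to 0.030 for IREB2, -0.43 to 0.17 for TF and -0.41 to 0.049 for TFRC, and in translation efficiency -0.072 to 0.51 for FTL and -0.28 to 0.63 for TF. Depth is unknown, so counting error could not be given for any value, and a footprint value of 0 sets no limit.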
